A study of Homo sapiens with 17 samples.

Results

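Tight junctions seal the space between neighbouring epithelial cells, and the apical polarity complexes tell a cell which side faces the lumen. The genes described here were a list of 39 that encode claudins, other junction membrane proteins, junction scaffolds, the PAR, Crumbs and Scribble polarity complexes and MAL2, an adaptor of apical transport. A gene was measured where a probe set, the group of array probes that reports one transcript, carried exactly 1 symbol in the platform annotation and that symbol was the gene's; of several such probe sets the brightest was kept. This gave 34 of the 39 genes, among 17958 genes tested in all. CLDN2, CLDN10 and OCLN lay on probe sets with several symbols, F11R and TJP3 were not listed in the annotation used, and these 5 were not analysed here. All 34 entered the tests with no filter on dim values, and 6 of them (CLDN8, CLDN14, CLDN16, CLDN18, JAM2 and CGNL1) were among the dimmest 30% of genes.

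The arrays came from A549 and H2122, human lung adenocarcinoma lines that lack functional LKB1, the kinase encoded by STK11. Each line carried a pBABE retrovirus that was empty (pBABE), or expressed wild-type LKB1 (LKB1), or expressed the kinase-dead mutant LKB1-K78I (K78I); all cells, controls included, were selected in 1.0 microgram per millilitre of puromycin for 2 weeks and grown in 5% serum. There were 17 arrays, 3 in each of the 6 groups apart from H2122 pBABE with 2, and the labels do not say whether the replicates were separate transductions or cultures, so p-values measure the spread between these samples, which may be technical. The comparison asked what an active LKB1 kinase did to these transcripts in each line, with the pBABE and K78I arrays of the line as controls. Values are log2 expression levels, on which a difference of 1 is a doubling, and a gene was called at an adjusted p under 0.05 in a limma fit over all 17958 genes. The members and the other gene lists were chosen with earlier results of these data known, so their shares of called genes are not independent of that choice.

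The nematode homolog of LKB1, PAR-4, belongs to the genes that partition the early embryo, and in mammalian epithelial cells LKB1 acts as a polarity kinase upstream of AMPK and the MARK kinases. Claudins form the strands of the tight junction and set which ions pass; TJP1 (ZO-1), cingulin and paracingulin tie those strands to actin. The PAR complex (PARD3, PARD6 and atypical protein kinase C) and the Crumbs complex mark the apical side, and the Scribble complex marks the basolateral side.

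STK11 checked the labels in part. In H2122 its level was 6.33 and 6.22 on the pBABE arrays, 11.27, 11.31 and 11.26 on the K78I arrays and between 11.20 and 11.35 on the LKB1 arrays. In A549 the pBABE arrays read 6.88, 7.38 and 10.52, the K78I arrays 10.54, 7.14 and 10.42 and the LKB1 arrays 9.42, 10.23 and 9.62, so the array labelled A549 pBABE 3 was as high as the transduced ones and the array labelled A549 K78I 2 was as low as the empty vector. For 3 H2122 arrays the source name gave another construct than the title: LKB1 for pBABE 2, K78I for LKB1 3 and the empty vector for K78I 3. STK11 on pBABE 2 (6.22) and on K78I 3 (11.26) went with the titles and not with the source names. It cannot tell LKB1 from K78I and so does not check LKB1 3. Titles were used, and the H2122 results below are given without these arrays too. Within each line the mean of 23 cell cycle genes was lowest on control arrays, namely A549 pBABE 1 (9.44), A549 K78I 2 (8.94) and H2122 pBABE 2 (8.15), against 9.79 to 10.05 on the A549 LKB1 arrays and 9.41 to 9.65 on the H2122 LKB1 arrays. The epithelial keratins KRT7, KRT8 and KRT18 had means between 11.64 and 12.99 in both lines, while the lung lineage markers SFTPB, SFTPC and NAPSA were between 4.06 and 4.50, below every array's median over all probe sets (5.62 to 5.73), and NKX2-1 had means of 4.43 in A549 and 5.53 in H2122. EPCAM and KRT19, further epithelial markers, had means of 11.23 and 10.72 in H2122 and 6.94 and 4.83 in A549. The mean of the 5 measured leukocyte markers lay between 4.60 and 5.16 and that of the 5 endothelial markers between 3.73 and 4.34 over all arrays.

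The lines differed in which junction genes they expressed before LKB1 was restored. CLDN7, a claudin of tight junctions and lateral membranes, read 6.22, 5.27 and 4.57 on the A549 pBABE arrays and 5.11, 5.83 and 5.29 on the A549 K78I arrays, and 11.23 and 11.51 and 11.49, 11.56 and 11.54 on the corresponding H2122 arrays. The lowest H2122 value lay far above the highest A549 value, and the difference, A549 minus H2122, was -6.07 (SE 0.25, limma adjusted p = 3e-11). MAL2 differed by -5.38 (adjusted p = 2.6e-09), CLDN4 by -3.92 (adjusted p = 4.7e-11), MARVELD3, a tetraspan protein of the tight junction, by -2.80 (adjusted p = 2.4e-11) and CLDN3 by -1.73 (adjusted p = 4.1e-06). In A549 controls CLDN4 and MARVELD3 lay below the arrays' median over probe sets and CLDN7 around it.

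In the other direction JAM3, a junctional adhesion molecule, was higher in A549 controls by 2.49 (adjusted p = 8.9e-10), with 7.51 ± 0.24 (SD, n = 6) against 5.02 ± 0.27 (SD, n = 5). PARD6B, an adaptor of the PAR complex, was higher by 1.29 (adjusted p = 1.8e-06), TJP1 by 0.65 (adjusted p = 1.6e-05) and PARD3 by 0.56 (adjusted p = 0.0011). CLDN1, a claudin broadly expressed in epithelia, stood at 11.58 ± 0.44 (SD, n = 6) in A549 controls and 11.29 ± 0.22 (SD, n = 5) in H2122 controls and did not pass the test (adjusted p = 0.245). In all, 18 of 34 members were called between the lines, 4 higher and 14 lower in A549, beside 40.3% of all genes, 20.3% higher and 20.1% lower. Of the claudins 6 of 13 were called, all lower in A549; of the PAR complex 3 of 6, with PARD3 and PARD6B higher and PRKCZ lower. The call of CGN, cingulin (-0.55, adjusted p = 0.043), held in 9 of 25 alternative settings, and was lost, with adjusted p between 0.0517 and 0.169, without A549 K78I 1, A549 K78I 2, A549 LKB1 3, A549 pBABE 2, A549 pBABE 3, H2122 K78I 2, H2122 K78I 3, H2122 LKB1 1, H2122 LKB1 2, H2122 LKB1 3 or H2122 pBABE 2. CLDN9 and CRB3 kept their calls in 22 of 25 settings, MARVELD2 and PATJ in 24, and the other 13 in every setting in which they were tested.

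**Figure D1:**
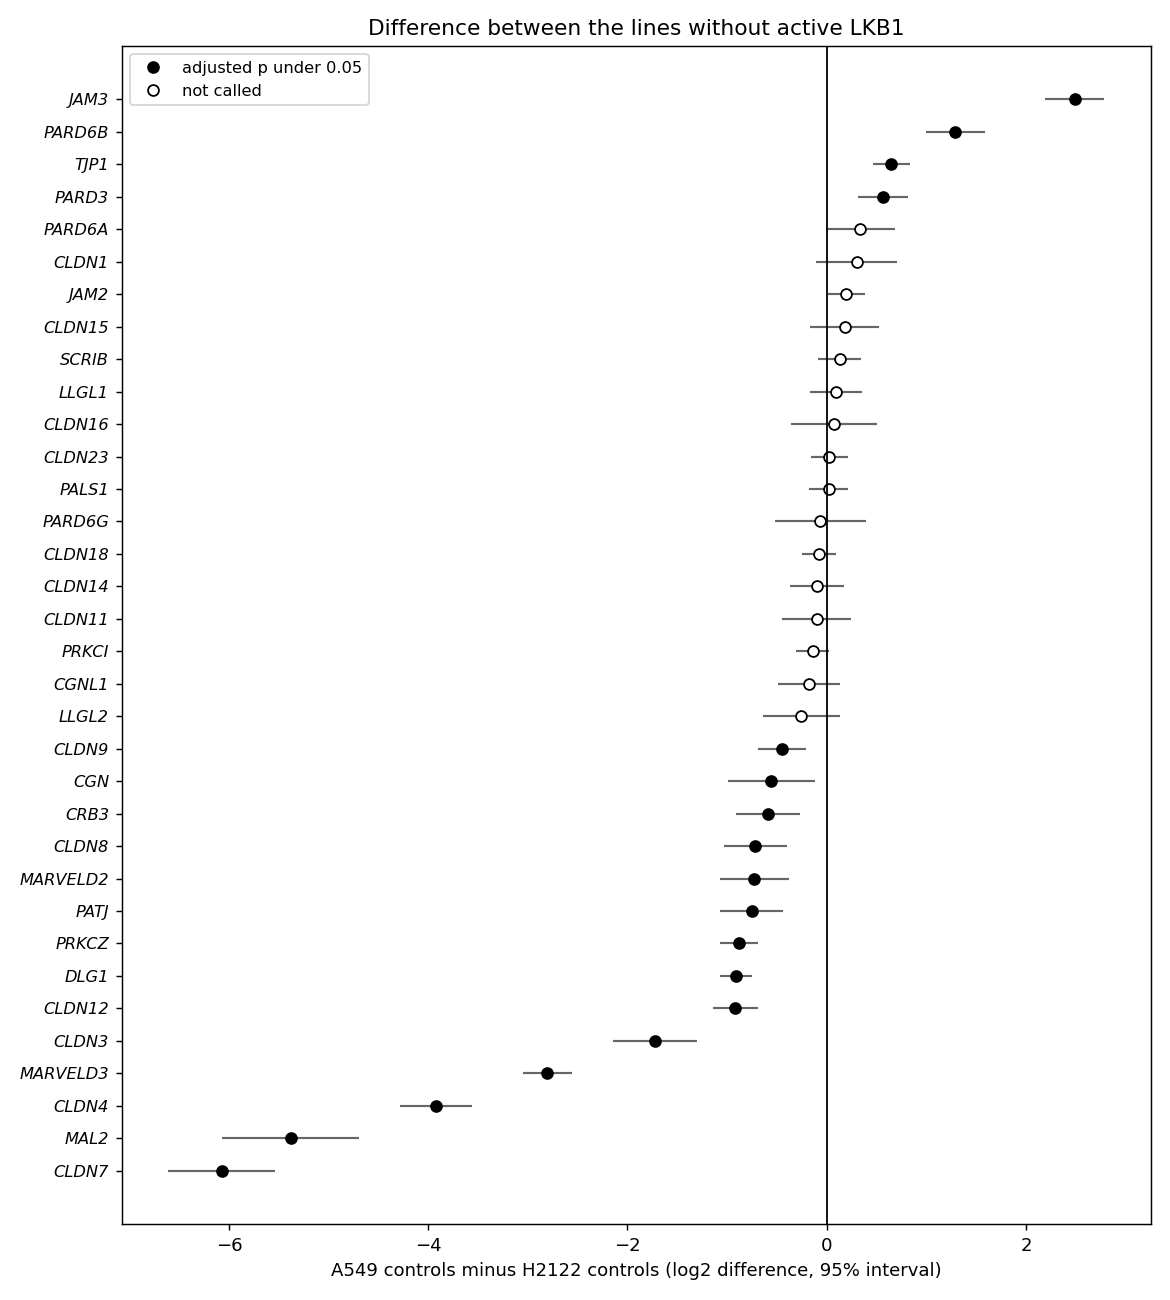
Difference between the control arrays of A549 and H2122 for the 34 measured genes, as log2 difference with its 95% interval, sorted by size; filled points passed the limma test. CLDN7, MAL2, CLDN4 and MARVELD3 lie at the low end and JAM3 at the high end.

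With LKB1, MAL2, CLDN1 and CLDN12 fell in A549, and CGNL1, TJP1 and PARD3 rose. MAL2 fell most, with a log2 difference of -3.00, to a level below the arrays' median over probe sets. CGNL1 rose by 1.26 from a level below that median and stayed below it on the LKB1 arrays. Folds of signals this dim are not exact. These 6 of 34 members (17.6%) stood beside 8.44% of all genes called in this comparison, with 3 members higher beside 5.49% of genes and 3 lower beside 2.95%. The median difference over the members was 0.07 and that over all genes -0.02. When each array was centred on its median, 3 members were again higher and 3 lower, while the share of calls that were higher went from 65.0% to 51.9% over all genes. The number of called members was 3 without A549 pBABE 1, A549 LKB1 1 or A549 LKB1 3, each left out alone. Without the arrays labelled A549 pBABE 3 and A549 K78I 2, whose STK11 was at odds with their labels, 5 members were called; CLDN1 was then -0.71 (adjusted p = 0.062).

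MAL2 helps carry proteins across epithelial cells to the apical surface. It read 8.16, 7.08 and 6.11 on the A549 pBABE arrays, 6.22, 8.00 and 7.56 on the K78I arrays and 4.49, 4.15 and 3.93 on the LKB1 arrays. The LKB1 arrays all lay below the lowest control, and the controls themselves spread over more than 2 log2 units, with the highest values on pBABE 1 and K78I 2, the arrays that were also low in cell cycle genes. The difference was -3.00 (SE 0.37, limma adjusted p = 0.00014), and -2.55 (adjusted p = 0.00012) without the controls low in cell cycle genes. The call held in all 26 alternative settings, where the difference ranged from -3.26 to -2.55. On arrays of bulk RNA, fewer cells that express a gene and less RNA per cell cannot be told apart. In H2122 MAL2 was bright in every group, with 12.51 and 12.48 on pBABE, 12.62, 12.64 and 12.68 on K78I and 12.50, 12.28 and 12.39 on LKB1 arrays. The H2122 groups overlapped and the difference was -0.18 (95% interval -1.01 to 0.65, adjusted p = 0.885).

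CLDN1 read 11.89, 11.02 and 11.35 on the A549 pBABE arrays, 11.28, 12.20 and 11.75 on the K78I arrays and 10.90, 10.60 and 10.81 on the LKB1 arrays. All LKB1 arrays were lower than all controls, the nearest pair being 0.12 apart. The difference was -0.81 (SE 0.22, limma adjusted p = 0.034), a fall of 1.75-fold. Its highest controls were again pBABE 1 and K78I 2, and without the controls low in cell cycle genes the difference was -0.58 (adjusted p = 0.068). The call held in 15 of 26 alternative settings; it was lost without A549 LKB1 1 (adjusted p = 0.081), LKB1 2 (0.135), LKB1 3 (0.11), pBABE 1 (0.068) or K78I 2 (0.0545), each left out alone, and without the arrays of conflicting labels (0.068), with the difference between -0.93 and -0.58 throughout.

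CLDN12, a claudin that lacks the usual binding motif for junction scaffolds, read 9.78, 9.62 and 9.45 on A549 pBABE, 9.46, 9.59 and 9.39 on K78I and 9.21, 8.97 and 9.06 on LKB1 arrays. The LKB1 arrays were again the lowest, with no overlap. The difference was -0.47 (SE 0.12, limma adjusted p = 0.027), and it was no longer called without LKB1 1 (at the threshold, adjusted p = 0.05), LKB1 2 (0.118), LKB1 3 (0.111), pBABE 1 (0.061) or pBABE 2 (0.0505). CLDN4 is a claudin of tight epithelia. Its LKB1 arrays (5.83, 5.42 and 5.72) all lay above the pBABE (5.32, 5.15 and 5.02) and K78I arrays (4.92, 4.94 and 4.66), and the difference of 0.65 missed the threshold (adjusted p = 0.0518).

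Of the junction scaffolds, CGNL1 (paracingulin), a relative of cingulin, read 3.67, 4.02 and 4.47 on A549 pBABE, 4.17, 4.12 and 4.53 on K78I and 5.44, 5.29 and 5.54 on LKB1 arrays. Controls and LKB1 arrays alike were below the arrays' median over probe sets, and every LKB1 array was at least 0.76 above every control. The difference was 1.26 (SE 0.17, limma adjusted p = 0.00024) and the call held in all 25 settings that kept the gene; the filter on dim genes removed it. In H2122 the gene stayed near the level of the A549 controls, between 4.04 and 4.62 over all 8 arrays.

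TJP1 (ZO-1), the scaffold that binds claudin tails and actin, read 10.98, 10.94 and 11.29 on A549 pBABE, 11.25, 11.21 and 11.34 on K78I and 11.81, 11.81 and 11.76 on LKB1 arrays. The LKB1 arrays spread over 0.05 and lay 0.42 or more above each control. The difference was 0.62 (SE 0.10, limma adjusted p = 0.001), and the call held in all 26 settings. CGN (cingulin) had 7.43, 5.99 and 6.94 on LKB1 arrays within or below the control range and gave -0.50 (adjusted p = 0.235).

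PARD3, the scaffold of the PAR complex, read 8.50, 8.54 and 9.09 on A549 pBABE, 8.96, 8.66 and 9.08 on K78I and 9.45, 9.20 and 9.37 on LKB1 arrays. LKB1 arrays were the highest, with a gap of 0.11 to the nearest controls, pBABE 3 and K78I 3. The difference was 0.53 (SE 0.14, limma adjusted p = 0.023), and the call held in 19 of 26 alternative settings. The losses included the fits without LKB1 1 (adjusted p = 0.118), LKB1 3 (0.102), pBABE 1 (0.0517) or pBABE 2 (0.0536). They also included the fit without the controls low in cell cycle genes (0.0514) and that of each line alone (0.0937). Without the arrays of conflicting labels, all of H2122, the difference was again 0.53. PARD6G, one of the PARD6 adaptors, had 5.94, 6.04 and 6.29 on LKB1 arrays, all above the controls, which ranged from 4.57 to 5.78, and gave 0.77 (adjusted p = 0.073). No member of the Crumbs or Scribble complexes was called in A549; LLGL1, a Scribble complex protein, came nearest with 0.47 (adjusted p = 0.0546).

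**Figure D2:**
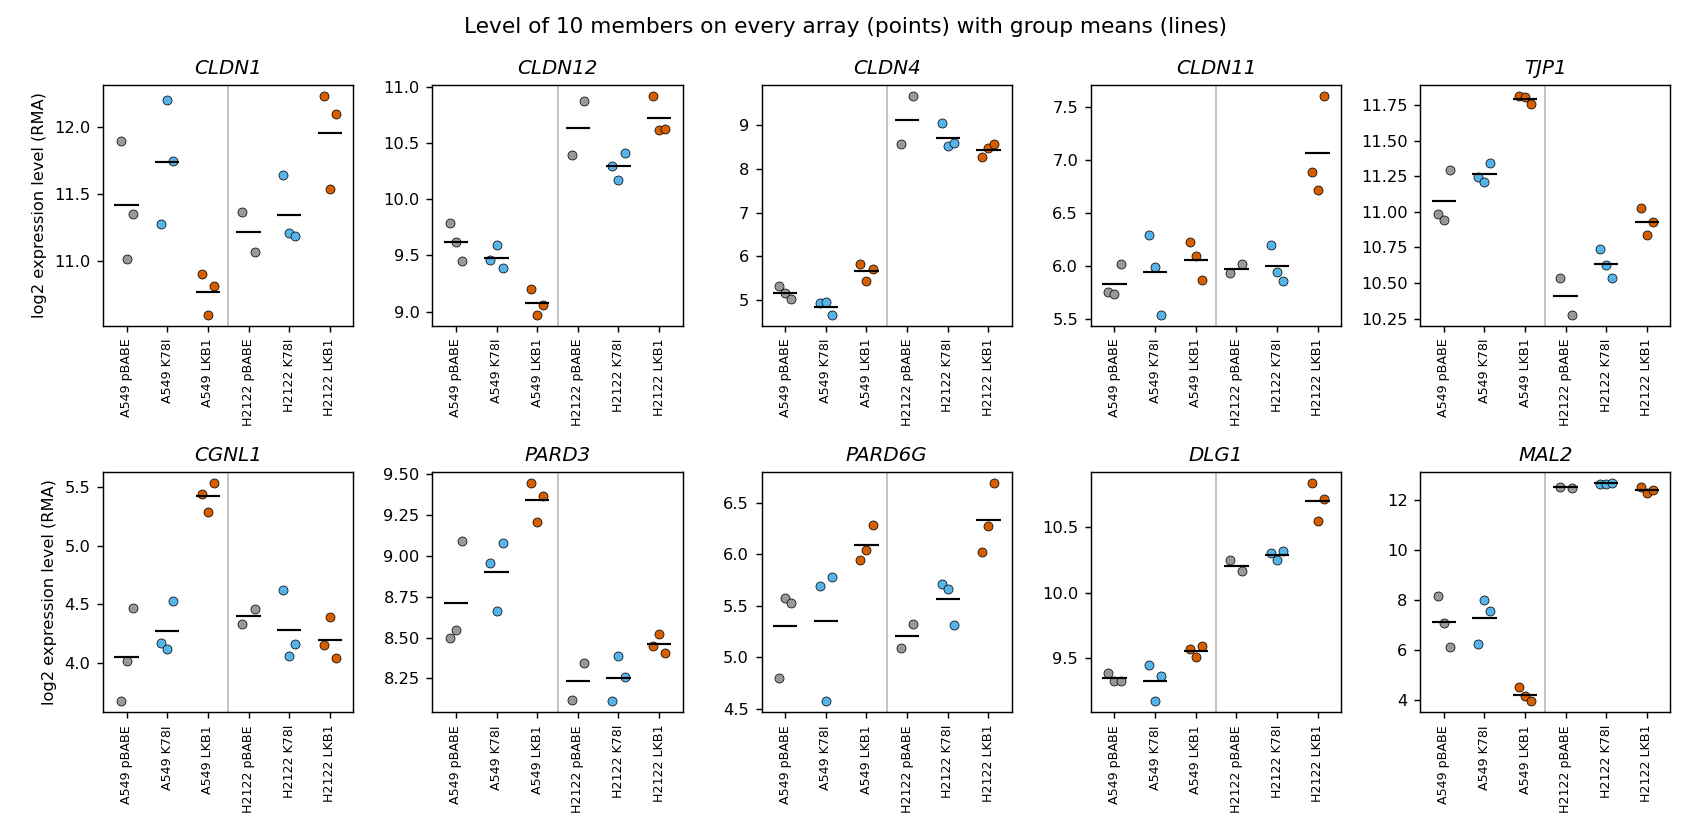
Log2 expression level (RMA) of the 10 genes described in full on every array, in the pBABE, K78I and LKB1 groups of A549 (left of the grey line) and H2122 (right); lines are group means, and each panel has its own axis. The A549 LKB1 arrays lie apart from all A549 controls for every gene shown but CLDN11. The gaps are widest for MAL2 (1.62), CGNL1 (0.76) and TJP1 (0.42). The H2122 LKB1 arrays lie apart from all H2122 controls for CLDN11, TJP1, PARD6G and DLG1, and by 0.02 for PARD3. The genes shown were chosen largely by calls on these same arrays, so such gaps are partly built in. The share of all genes with such gaps was not determined.

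With LKB1, CLDN11, PARD6G, TJP1 and DLG1 rose in H2122, and no member fell past the threshold. CLDN11, a claudin best known from myelin and the testis, rose most, 2.12-fold. These 4 of 34 members (11.8%) stood beside 7.28% of all genes, of which 4.99% were higher and 2.29% lower; 11 members had an unadjusted p under 0.05. The median difference over members was -0.01 and that over all genes -0.04. With each array centred on its median 3 members were higher and 1, LLGL2, lower. The 4 calls did not hold under other handling of the labels. With groups by source name 0 members were called (limma, 2 at an unadjusted p under 0.05). That grouping sets pBABE 2, low in STK11, among LKB1 arrays and K78I 3, high in STK11, among empty vector arrays. The fit without the 3 arrays of conflicting labels kept 1 pBABE array. Its differences were 0.80 for CLDN11, 0.75 for PARD6G, 0.32 for TJP1 and 0.43 for DLG1. The number of called members was 7 without H2122 pBABE 1 and 2 without pBABE 2, LKB1 1, LKB1 3 or K78I 3, each left out alone.

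CLDN11 read 5.94 and 6.02 on H2122 pBABE, 6.20, 5.94 and 5.86 on K78I and 6.89, 6.72 and 7.61 on LKB1 arrays. LKB1 arrays lay at least 0.52 above the controls, with LKB1 3 the highest. The difference was 1.08 (SE 0.20, limma adjusted p = 0.0028); without the arrays of conflicting labels, of which LKB1 3 is one, it was 0.80 (adjusted p = 0.073), and with groups by source name 0.30 (adjusted p = 0.778). The call held in the other 24 of 26 settings. In A549 the difference was 0.17 (adjusted p = 0.67) with overlapping groups.

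DLG1, a Scribble complex scaffold of the lateral membrane, read 10.25 and 10.16 on H2122 pBABE, 10.30, 10.25 and 10.32 on K78I and 10.84, 10.55 and 10.72 on LKB1 arrays. The controls spread over less than 0.2 and all LKB1 arrays were higher. Its difference was 0.45 (SE 0.09, limma adjusted p = 0.0058), 0.43 (adjusted p = 0.111) without the arrays of conflicting labels and 0.17 (adjusted p = 0.707) with groups by source name; the other 24 of 26 settings kept the call. In A549 its LKB1 arrays (9.57, 9.51 and 9.59) also lay above all controls, and the difference was 0.22 (adjusted p = 0.15).

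TJP1 in H2122 read 10.54 and 10.28 on pBABE, 10.74, 10.63 and 10.54 on K78I and 11.03, 10.84 and 10.93 on LKB1 arrays. As in A549, every LKB1 array was above every control. The difference was 0.41 (SE 0.10, limma adjusted p = 0.022), and TJP1 was called in 18 of 26 alternative settings. It lost its call without H2122 LKB1 1 (adjusted p = 0.119), LKB1 3 (0.084), pBABE 2 (0.07) or K78I 3 (0.0554), under median centring (0.37, adjusted p = 0.081) and without the arrays of conflicting labels (0.32, adjusted p = 0.27). TJP1 was the only member called with the same direction in both lines, and its effects in the lines differed by 0.21 (95% interval -0.09 to 0.51, adjusted p = 0.567).

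PARD6G read 5.09 and 5.32 on H2122 pBABE, 5.71, 5.66 and 5.31 on K78I and 6.02, 6.28 and 6.69 on LKB1 arrays, with LKB1 3 the highest. LKB1 arrays did not overlap the controls, and the difference was 0.94 (SE 0.26, limma adjusted p = 0.038). This call held in 13 of 26 settings; the removal of any one of the 3 A549 LKB1 arrays, which enter only the shared spread, moved it past the threshold (adjusted p = 0.0502 to 0.0507), as did that of H2122 pBABE 1 (0.081), pBABE 2 (0.056), LKB1 1 (0.053), LKB1 2 (0.102), LKB1 3 (0.201), K78I 2 (0.057) or K78I 3 (0.087). Without the arrays of conflicting labels it was 0.75 (adjusted p = 0.329).

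LLGL2 and CLDN3 came near the threshold in H2122, with LKB1 arrays below the controls. LLGL2, a Scribble complex protein that holds back atypical protein kinase C, had 6.94, 7.35 and 7.29 on LKB1 arrays, below all controls (lowest 7.69), and gave -0.74 (adjusted p = 0.0543). CLDN3 had 7.82, 7.87 and 7.53, also below all controls (lowest 8.05), with -0.71 (adjusted p = 0.097). CLDN1 gave 0.68 (adjusted p = 0.101), with LKB1 arrays at 12.24, 11.54 and 12.10 and the K78I 1 array, at 11.65, above the lowest of them. CRB3, the epithelial Crumbs protein, gave -0.45 (adjusted p = 0.173) and PARD6A -0.46 (adjusted p = 0.193).

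The effect of LKB1 differed between the lines for 5 members. CLDN1 gave -0.81 in A549 and 0.68 in H2122, a difference in effect of -1.49 (SE 0.32, limma adjusted p = 0.018). For CLDN4, with 0.65 in A549 and -0.48 in H2122, the effects differed by 1.13 (SE 0.28, limma adjusted p = 0.038). Its H2122 arrays read 8.58 and 9.68 on pBABE, 9.04, 8.52 and 8.60 on K78I and 8.28, 8.49 and 8.57 on LKB1, with overlap between LKB1 and control arrays. MAL2 (-2.82, adjusted p = 0.0087), CGNL1 (1.40, adjusted p = 0.0046) and CLDN12 (-0.72, adjusted p = 0.035) also differed. These 5 of 34 (14.7%) stood beside 3.6% of all genes. The effect, not the level, was higher in A549 than in H2122 for 2 members, beside 1.63% of genes. It was lower for 3, beside 1.98%. MAL2 and CGNL1 kept this call in all 17 fits that left out 1 array, and lost it without the arrays of conflicting labels, where the differences were -2.82 (adjusted p = 0.092) and 1.32 (adjusted p = 0.064). CLDN12 was the 1 member still called without those arrays (-0.92, adjusted p = 0.037).

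The other 3 depended on single arrays. CLDN1 lost the call without A549 LKB1 2 (adjusted p = 0.0554), A549 LKB1 3 (0.0508), H2122 LKB1 1 (0.064) or H2122 LKB1 3 (0.061), and was -1.30 (adjusted p = 0.183) without the arrays of conflicting labels. CLDN4 kept it in 7 of the 17 fits that left out 1 array and CLDN12 in 8 of 17. CLDN4 lost it, with adjusted p between 0.0548 and 0.118, without A549 LKB1 1, A549 pBABE 2, A549 pBABE 3, A549 LKB1 3, A549 K78I 3, H2122 LKB1 1, H2122 K78I 1, H2122 LKB1 2, H2122 LKB1 3 or H2122 K78I 3. CLDN12 lost it, with adjusted p between 0.0507 and 0.116, without A549 pBABE 1, A549 pBABE 2, A549 LKB1 2, A549 LKB1 3, H2122 LKB1 1, H2122 K78I 1, H2122 LKB1 2, H2122 K78I 2 or H2122 LKB1 3. The number of members called was 2 without A549 LKB1 3, H2122 LKB1 1 or H2122 LKB1 3, and 3 without A549 pBABE 2, H2122 K78I 1 or H2122 LKB1 2. The other 29 members did not pass this test, which does not show that LKB1 acted on them alike; for PARD3, called in A549 alone, the effects differed by 0.32 (95% interval -0.10 to 0.73), and for DLG1, called in H2122 alone, by -0.24 (-0.51 to 0.03).

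**Figure D3:**
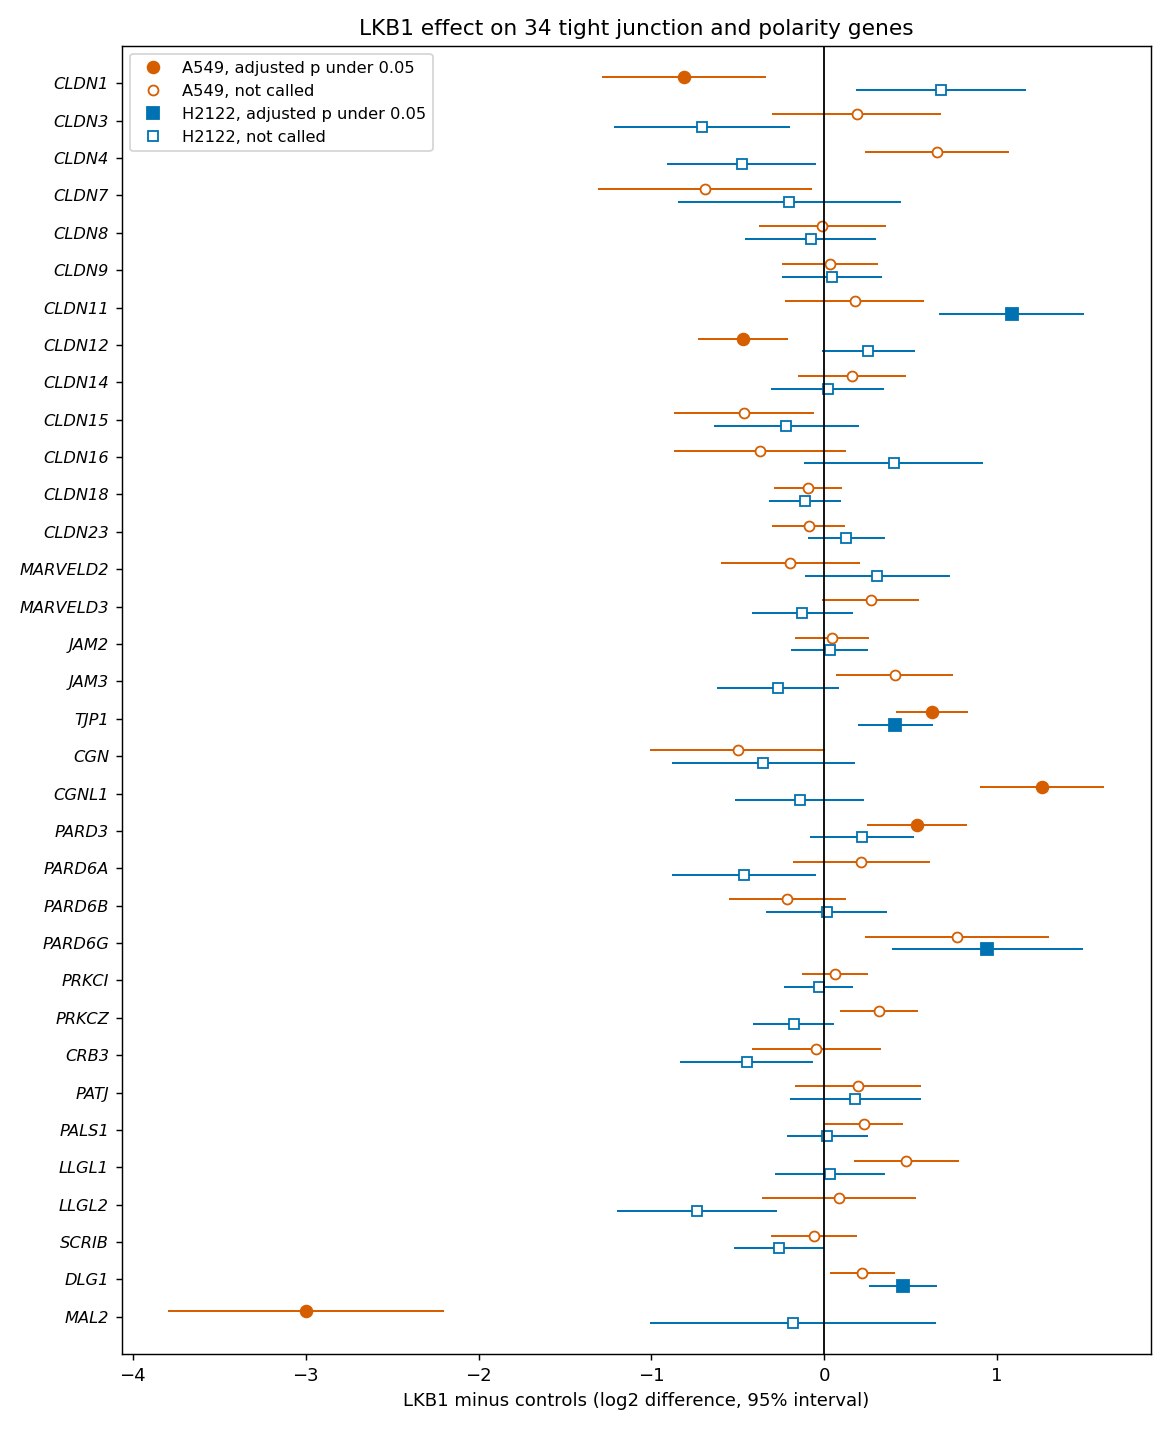
Log2 difference between LKB1 and control arrays with its 95% interval for the 34 measured genes in A549 (circles) and H2122 (squares); filled symbols passed the limma test at an adjusted p under 0.05. MAL2, at -3.00 in A549, lies apart from the rest. Several genes, CLDN1, CLDN4, CLDN12 and CGNL1 among them, have opposite signs in the lines.

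Set against each control alone, the same LKB1 arrays enter both comparisons, so they are not independent of each other. Against K78I, which differs from LKB1 in its kinase activity, 5 members were called in A549 beside 5.25% of genes: MAL2 (-3.07), CGNL1 (1.15), TJP1 (0.53), CLDN1 (-0.97) and CLDN4 (0.81, adjusted p = 0.0495). Against pBABE there were also 5, beside 5.5%: MAL2 (-2.93), CGNL1 (1.37), TJP1 (0.72), PARD3 (0.63) and CLDN12 (-0.54). CLDN1 against pBABE was -0.65 (adjusted p = 0.182). In H2122, CLDN11 (1.07) and DLG1 (0.41) were called against K78I beside 3.89% of genes, and CLDN11 (1.09), DLG1 (0.50) and TJP1 (0.52) against pBABE beside 5.77%. Under median centring the share of calls over all genes that were higher went from 67.8% to 55.5% against K78I in A549 and from 72.2% to 57.5% against pBABE in H2122; the members called were then 1 higher and 2 lower in the first, where CLDN4 and TJP1 dropped out, and 2 higher and 1 lower (CLDN11, PARD6G and LLGL2) in the second.

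These smaller comparisons depended more on single arrays. Against K78I in A549 the count was 2 without A549 LKB1 1 and 3 without A549 LKB1 2, LKB1 3, K78I 2, K78I 3, H2122 K78I 2, LKB1 3 or K78I 3. Against pBABE in A549 it was 3 without A549 pBABE 1, pBABE 2, LKB1 1 or LKB1 3, and it was 9 without both arrays at odds with STK11, when CLDN7, CLDN15, LLGL1 and PARD6G joined the 5. Against K78I in H2122 it was 4 without A549 K78I 2, 1 without H2122 LKB1 1, K78I 1 or K78I 2, and 0 without H2122 LKB1 3 or K78I 3 (limma; 8 and 5 at an unadjusted p under 0.05). Against pBABE in H2122 it was 6 without pBABE 1, 0 without pBABE 2 (limma; 4 at an unadjusted p under 0.05), and 1 without LKB1 1 or LKB1 3. MAL2 and CGNL1 were called against both A549 controls in every alternative setting that tested them.

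No member was called between the kinase-dead mutant and the empty vector, which does not show that they act alike. In A549 0 of 34 members and 0% of all genes were called between K78I and pBABE in limma. At an unadjusted p under 0.05 there were 1 member (CLDN23, 0.30) and 472 genes. This A549 comparison includes the 2 arrays whose STK11 was at odds with their labels, 1 in each group. Without those arrays 0 members were again called in limma, and 5 members had an unadjusted p under 0.05. In H2122 0 members and 0% of genes were called; at an unadjusted p under 0.05 there were 2 members and 1260 genes. The members were CLDN8 (0.75) and CLDN12 (-0.34), and 1 member, CLDN4, was called when H2122 pBABE 1 was left out. In A549 MAL2 differed between these controls by 0.14 (95% interval -0.78 to 1.06) and CLDN1 by 0.32 (-0.23 to 0.87).

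Members outside the 10 described in full passed no test of LKB1 against the controls of a line. Among claudins, CLDN7 gave -0.69 (adjusted p = 0.173) in A549 and -0.20 (adjusted p = 0.82) in H2122, and CLDN15 -0.47 (adjusted p = 0.158) and -0.22 (adjusted p = 0.637). CLDN8, CLDN14 and CLDN18, which form barriers or pores in kidney, inner ear or stomach and lung, were dim on all arrays, at most 4.77. JAM3 gave 0.41 (adjusted p = 0.139) and -0.27 (adjusted p = 0.423), with opposite signs in the lines and no call. Of the atypical protein kinases C, the catalytic part of the PAR complex, PRKCI stayed between 9.19 and 9.57 on all 17 arrays, and PRKCZ gave 0.32 (adjusted p = 0.081) in A549. Of the Crumbs complex, PALS1, its scaffold, gave 0.23 (adjusted p = 0.225) and 0.02 (adjusted p = 0.963), and PATJ 0.19 (adjusted p = 0.584) and 0.18 (adjusted p = 0.684). SCRIB gave -0.06 (adjusted p = 0.843) and -0.26 (adjusted p = 0.249). The 2 probe sets of MARVELD2 held the same values; the second one of PRKCZ was dim, between 3.76 and 4.56.

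The RefSeq table of promoters (GRCh38.p14) held 39 windows for 23 of the 34 measured members. The 250 bases before the start were searched for 4 motifs on both strands. The E-box CAGGTG, or CACCTG on the other strand, a letter pattern bound by SNAI and ZEB repressors of epithelial genes, lay in 9 windows (23.1%) beside 17.5% of the table's 35116 windows, and was found for CLDN7, CLDN14, CLDN18, CRB3, DLG1, PATJ, PRKCZ and TJP1. The cAMP response element TGACGTCA, the site of CREB, whose coactivators are held back by kinases that LKB1 activates, lay in 3 windows (7.69%, of CLDN7, PARD6A and PRKCZ) beside 1.65%. The GRHL pattern AACCGGTT lay in 0 windows beside 0.117%, and the TEAD pattern GGAATG, or CATTCC, in 3 (7.69%) beside 11.9%. A match is a string of letters, not a measured site, and windows of one gene can overlap. The 4 windows shown are those of CLDN7, the claudin that differed most between the lines, and of CLDN1, CGNL1 and TJP1, which moved with LKB1 in A549; of the 2 windows of CLDN7 and the 4 of TJP1 the one with a match is shown; capitals mark motif matches, and each runs 5′ to 3′ on the gene's strand. The CLDN7 window (chr17:7262479-7262728, minus strand) held 4 E-box matches and 1 cAMP response element, the first E-box starting at position -174 from the start; the TJP1 window (chr15:29969050-29969299, minus strand) held 1 E-box at position -88, and the CLDN1 (chr3:190322447-190322696, minus strand) and CGNL1 (chr15:57376255-57376504, plus strand) windows held none of the 4 motifs.
CLDN7: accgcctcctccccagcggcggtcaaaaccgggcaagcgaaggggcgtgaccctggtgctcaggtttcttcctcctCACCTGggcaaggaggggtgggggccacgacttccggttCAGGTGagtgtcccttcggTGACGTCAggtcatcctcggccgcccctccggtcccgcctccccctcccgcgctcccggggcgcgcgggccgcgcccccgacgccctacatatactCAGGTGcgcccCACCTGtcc
TJP1: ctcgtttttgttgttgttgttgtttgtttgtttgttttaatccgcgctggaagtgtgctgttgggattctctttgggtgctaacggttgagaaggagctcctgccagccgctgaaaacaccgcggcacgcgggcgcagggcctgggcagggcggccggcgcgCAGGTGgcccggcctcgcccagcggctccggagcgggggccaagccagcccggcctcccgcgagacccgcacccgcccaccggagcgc
CLDN1: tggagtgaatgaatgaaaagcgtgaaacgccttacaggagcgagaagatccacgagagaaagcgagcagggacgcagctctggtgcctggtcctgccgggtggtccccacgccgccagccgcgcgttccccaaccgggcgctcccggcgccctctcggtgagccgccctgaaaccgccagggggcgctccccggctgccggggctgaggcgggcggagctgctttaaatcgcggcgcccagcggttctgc
CGNL1: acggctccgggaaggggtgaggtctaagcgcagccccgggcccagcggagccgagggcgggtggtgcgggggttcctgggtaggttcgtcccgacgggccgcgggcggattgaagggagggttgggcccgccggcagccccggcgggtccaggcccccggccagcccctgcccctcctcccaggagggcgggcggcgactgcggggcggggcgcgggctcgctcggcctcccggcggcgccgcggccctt

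In a list of repressors and activators of junction genes, 16 genes were measured. Not all of them read such patterns, splicing factors being among them. SNAI2 (SLUG), an E-box repressor, rose in A549 by 2.11 (SE 0.58, limma adjusted p = 0.034), from 5.07 ± 0.27 (SD, n = 6) in controls to LKB1 arrays between 5.72 and 8.87; ESRP2, an epithelial splicing factor, fell by 0.49. These were 2 of 16 (12.5%), beside 8.44% of all genes. The SNAI2 call was lost, with adjusted p between 0.0537 and 0.197, without A549 K78I 2, A549 LKB1 2, A549 LKB1 3, A549 pBABE 1 or A549 pBABE 2. In H2122 SNAI2 stood at 9.77 ± 1.24 (SD, n = 5) in controls and 11.57 ± 0.11 (SD, n = 3) under LKB1 and gave 1.92 (adjusted p = 0.07). In H2122 ZEB1 rose (0.74) and SNAI1 (-0.80), ELF3 (-0.64), GRHL1 (-0.64), OVOL1 (-0.57) and ESRP2 (-0.58) fell, so that the E-box repressors ZEB1 and SNAI1 moved in opposite directions and 4 epithelial factors fell. That is 6 of 16 (37.5%, beside 7.28% of all genes), of which ZEB1 alone was still called without the arrays of conflicting labels. Single arrays ended the calls of SNAI1 (without H2122 LKB1 1 or H2122 LKB1 3, adjusted p 0.061 to 0.09), ELF3 (without H2122 K78I 3, H2122 LKB1 2, H2122 LKB1 3 or H2122 pBABE 2, adjusted p 0.06 to 0.155), GRHL1 (without H2122 LKB1 2, adjusted p = 0.065) and OVOL1 (without H2122 LKB1 1, H2122 LKB1 2, H2122 LKB1 3 or H2122 pBABE 2, adjusted p 0.0522 to 0.088). Before LKB1 the lines differed in this list by -6.27 (adjusted p = 5e-16) for ESRP1, -5.77 (adjusted p = 5e-16) for GRHL2 and -4.58 (adjusted p = 2.3e-06) for SNAI2, all lower in A549, and 3.24 (adjusted p = 1.9e-12) for ZEB1, higher in A549.

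Among 50 tight junction and polarity genes outside the 39, 43 were measured and 8 were called in A549 (18.6%), 6 higher and 2 lower, beside 8.44% of all genes, 5.49% higher and 2.95% lower. CXADR, a junction adhesion protein, fell by 0.85 (adjusted p = 0.003) and LIN7A, a scaffold, by 1.08 (0.014). ESAM (1.24), an adhesion protein, PARD3B (0.79), the paralog of PARD3, TIAM1 (0.54), a Rac activator that binds PARD3, DLG5 (0.51), ARHGAP17 (0.49) and CDC42 (0.40), the GTPase of the PAR complex, rose. Under median centring 3 rose and 5 fell; TIAM1, ARHGAP17 and CDC42 were then not called. Single arrays ended the calls of PARD3B (without A549 K78I 2, A549 LKB1 1, A549 LKB1 3 or A549 pBABE 2, adjusted p 0.0513 to 0.161), TIAM1 (without A549 LKB1 2, adjusted p = 0.106), ARHGAP17 (without A549 LKB1 1, A549 LKB1 2, A549 LKB1 3 or A549 pBABE 1, adjusted p 0.0504 to 0.101), CDC42 (without A549 LKB1 1 or A549 LKB1 3, adjusted p 0.074 to 0.075) and LIN7A (without A549 LKB1 2, adjusted p = 0.096). In H2122, 4 of 43 were called (9.3%), beside 7.28% of all genes: MPDZ (0.87), a paralog of PATJ, and ILDR2 (0.85), of tricellular junctions, rose, and VAPA (-0.49) and EPB41L4B (-0.41) fell; single arrays ended the calls of VAPA (without H2122 LKB1 3, adjusted p = 0.059) and EPB41L4B (without H2122 LKB1 2 or H2122 LKB1 3, adjusted p 0.056 to 0.075). Without the arrays of conflicting labels these 4 had adjusted p from 0.065 (MPDZ) to 0.194 (VAPA).

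Adherens junctions lie just below tight junctions. In A549 5 of 13 measured adherens junction genes (38.5%) were called, beside 8.44% of all genes: CDH1 (E-cadherin) fell by 1.17 (adjusted p = 0.011), with controls at 10.82 ± 0.38 (SD, n = 6) and LKB1 arrays at 9.64 ± 0.74 (SD, n = 3), and NECTIN3 (1.25), VCL, the actin linker vinculin (0.90), PLEKHA7 (0.43) and CTNNA1 (0.35) rose. The calls of PLEKHA7 and CTNNA1 were lost under median centring, which left 2 higher and 1 lower. Single arrays ended the calls of CDH1 (without A549 LKB1 2, adjusted p = 0.068) and CTNNA1 (without A549 LKB1 1 or A549 LKB1 3, adjusted p 0.058 to 0.088), and that of PLEKHA7 held in 5 of 26 settings, 2 of them among the 17 that left out 1 array. In H2122 4 of 13 (30.8%, beside 7.28% of all genes) were called, with LIMA1 (1.52), NECTIN3 (1.30) and VCL (0.85) higher and NECTIN4 (-1.16) lower; without the arrays of conflicting labels 1 of the 13, LIMA1, was called, and with groups by source name 0.

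Of 18 apical membrane and microvillus genes, 3 rose in A549 (16.7%, beside 5.49% of all genes that were higher): PODXL, the apical sialomucin podocalyxin (2.11, adjusted p = 0.005), MSN, moesin (0.71, adjusted p = 0.02), and RAB11A (0.29, adjusted p = 0.0485), whose call was lost under median centring and held in 5 of 26 settings. The call of MSN was ended by leaving out A549 LKB1 1 or A549 LKB1 3 (adjusted p 0.088 to 0.104). In H2122 2 of 18 fell (11.1%, beside 2.29% of all genes that were lower and 7.28% called in all): MUC1, the apical mucin (-1.10, adjusted p = 0.0041), and MYO5B, the motor of apical recycling endosomes (-0.54, adjusted p = 0.034); MUC1 was still called without the arrays of conflicting labels (adjusted p = 0.043), and the call of MYO5B was ended by leaving out H2122 K78I 1, H2122 K78I 2, H2122 K78I 3, H2122 LKB1 1, H2122 LKB1 2, H2122 LKB1 3 or H2122 pBABE 2 (adjusted p 0.0508 to 0.124). Of the markers of other cell types, 1 of 7 fibroblast markers was called in A549 (14.3%, beside 8.44% of all genes). This was COL1A1, which rose from 6.49 ± 0.83 (SD, n = 6) to 10.39 ± 0.38 (SD, n = 3). The mean of the list, COL1A1 included, was 4.03 to 4.35 over A549 controls and 4.71 to 4.80 over A549 LKB1 arrays, while the median difference over the 7 genes was 0.035. The endothelial marker PECAM1 fell by 0.79 in H2122, 1 of 5 in that list, beside 7.28% of all genes called and 2.29% lower. The PECAM1 call was ended by leaving out H2122 LKB1 3 (adjusted p = 0.084). The part of either in the results above was not tested.

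**Figure D4:**
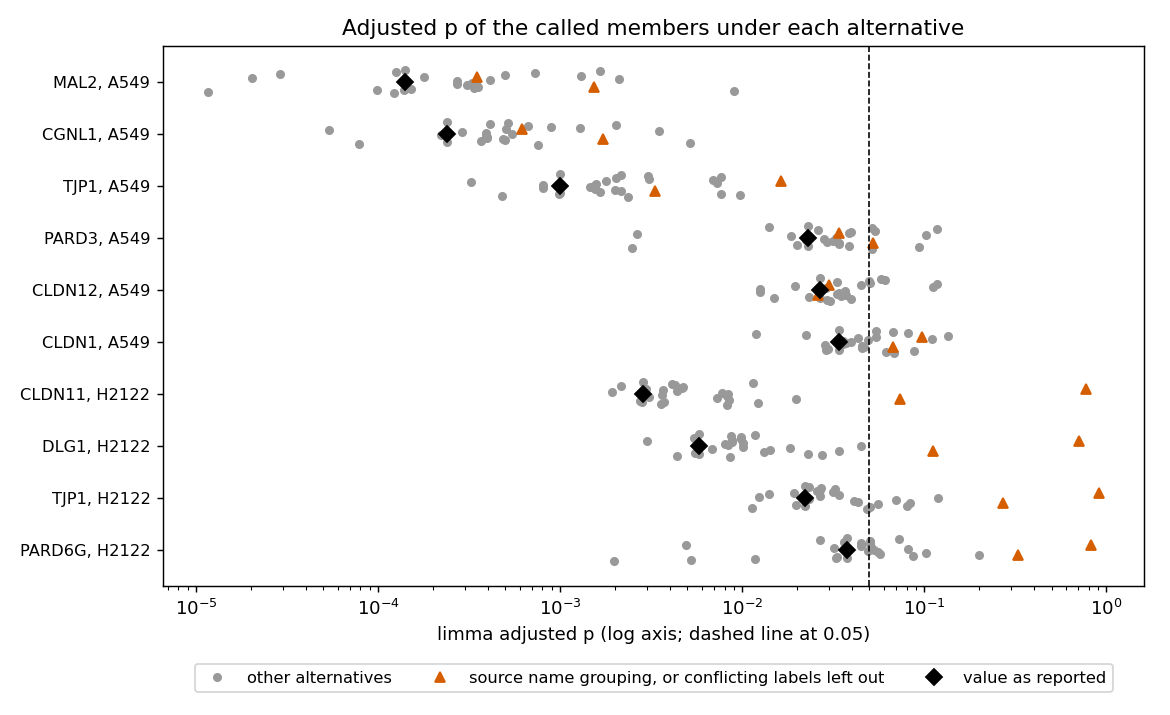
Adjusted p (limma, log axis) of each call of LKB1 against controls under every alternative setting; diamonds are the values as reported, triangles the fits grouped by source name or without the arrays of conflicting labels, and the dashed line is 0.05. MAL2, CGNL1 and TJP1 in A549 stay left of the line throughout, and all 4 H2122 calls cross it for both triangles.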

How the data were processed

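Total RNA (130 ng a sample, per the labels' protocols) was measured on 17 Affymetrix arrays. The authors deposited log2 levels. Per the submitters' processing notes these were computed by RMA in Expression Console 1.1, which makes all arrays' distributions alike, so that a shift shared by most genes is lost. No build was given for the probe sets in the sources used. Of 33297 probe sets, 19181 had 1 symbol, 2055 several, and 12061 were not listed in the annotation used. Gene identifiers of 19143 matched a RefSeq table, and 0 symbols changed. The brightest probe set of a gene was kept (895 genes had several), which left 17958 genes.

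Sample titles set the groups. limma 3.58.1 in R 4.3.3 (lmFit, eBayes) was fitted over all 6 groups, with 11 residual and 3.8 prior degrees of freedom and Benjamini-Hochberg adjustment over all genes; LKB1 was set against the mean of the 2 control groups of its line, against each control, and between lines. The fit was tested on simulated data. The number of arrays limits the precision.

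The members and all gene lists were chosen with earlier results of these data known. Described in full were members called in either line or in the difference between lines, those whose LKB1 difference was at least 1, and CLDN1 and MAL2. The alternatives set groups by source name, blocked on replicate number, dropped the 3 arrays of conflicting labels, dropped single arrays, dropped the dimmest 30% of genes, centred arrays on their medians, averaged a gene's probe sets, or fitted each line alone. After the data were seen, the fits without 2 arrays at odds with STK11 and without 3 controls low in cell cycle genes were added.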

Additional observations from a re-analysis of the deposited data

Results flagged for a closer look

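The effect of LKB1 differed between A549 and H2122, by limma's test of that difference, for 15 of the listed genes, beside 3.6% of all genes. By list this was 14.7% of 34 members, 6.98% of 43 junction genes outside them and 23.1% of 13 adherens junction genes. It was 16.7% of 18 apical membrane genes and 14.3% of 7 fibroblast markers. Of the 16 repressors and activators and of the lung lineage, leukocyte and endothelial markers 0 were called. Values are the log2 effect in A549 minus that in H2122. Of the tight junction and polarity members these were CLDN1 (-1.49), CLDN4 (1.13), CLDN12 (-0.72), CGNL1 (1.40) and MAL2 (-2.82).

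Among junction genes outside the members they were PARD3B (1.22), LSR, a tricellular junction protein (-1.03), and ESAM (1.35), and among adherens junction genes CDH1 (-1.63), NECTIN4 (1.22) and LIMA1 (-1.35). Apical membrane genes were PODXL (2.31), MYO5B (0.86) and MUC1 (1.12). COL1A1, a fibroblast marker, had the largest difference of the 15 (4.14). Of the 15, CLDN12, LIMA1 and COL1A1 kept the call without the arrays of conflicting labels.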

How the results depend on the processing

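PARD6G's difference between lines (-0.18) was 0.51 with groups by source name, 0.012 without the arrays of conflicting labels, and -0.37 to 0.006 with each array left out; by source name CLDN4 (0.16) and CGNL1 (0.092) in H2122 and the difference of DLG1 (0.054) changed sign too. None of these passed the test in either setting. With groups by source name 0 members were called in H2122 (all controls, K78I or pBABE), and 2 against K78I in A549; without the arrays of conflicting labels 0, 0 and 0 in H2122 and 1 between lines. Against K78I in A549 there were 3 with the replicate block, median centring, each line alone, or without the arrays at odds with STK11; against K78I in H2122, 1 with median centring or each line alone, 4 without the arrays at odds with STK11 and 5 without the controls low in cell cycle genes. Against pBABE there were 3 in A549 with each line alone and 9 without the arrays at odds with STK11, and 1 in H2122 without the controls low in cell cycle genes. Leaving out each array gave 3 to 8 (A549), 2 to 7 (H2122), 2 to 6 (between lines), 2 to 5 and 0 to 4 (against K78I in A549 and H2122), 3 to 7 and 0 to 6 (against pBABE), and 0 to 1 (K78I against pBABE in H2122). The cause of these changes was not tested.

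The labels give no shared source for replicate numbers. Deviations of same-numbered arrays from their group means correlated between -0.64 and 0.35 in A549. In H2122 all 7 pairs were positive (0.06 to 0.42, 6 of 7 over 0.1), against -0.42 to 0.13 for other pairs. The 2 pBABE arrays deviate from their mean by equal and opposite amounts, so these pairs are not independent and part of the contrast is forced. LKB1 3 and K78I 3 did not correlate best with their own number, so pairing in H2122 is not settled. With the replicate block 4 members were called in A549, 3 in H2122, 4 between lines (CLDN16 among them) and 14 between the controls of the lines. CLDN1 (adjusted p = 0.0546) and CLDN12 (0.0578) in A549, PARD6G in H2122 (0.0724), and the line differences of CLDN12 (0.0777) and CLDN4 (0.0778) were then not called. H2122 pBABE, with 2 arrays, limits that line; where 1 was left, it was assumed to vary like the other groups. Dim genes, CGNL1 among them, have less signal over background.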
